A study of Mus musculus with 4 samples.

Results

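The transcripts described here encode the repressors of the E-box loop of the circadian clock, 7 genes in all: Per1, Per3, Cry1, Cry2, Ciart, Bhlhe40 and Bhlhe41. Per2, a further core repressor of the loop, is not analysed here, since its probeset names more than 1 gene. The 7 were taken as the probesets that the platform annotation assigns to exactly 1 of these symbols. Each gene had 1 such probeset, so the 7 genes rest on 7 of the 23521 single-gene probesets, which name 22180 genes. The suprachiasmatic nucleus (SCN) is the part of the mouse hypothalamus that paces the body's daily rhythms, and its RNA had been measured on 4 Affymetrix arrays with 1 array in each group. The groups were non-HPX mice at Zeitgeber time (ZT) 2, non-HPX mice at ZT14, hypophysectomized (HPX) mice at ZT2 and HPX mice at ZT14. HPX mice lack the pituitary gland, and the comparison asks how day and night expression in the SCN looks with and without it. All mice were kept in 12 h of light and 12 h of dark, so ZT2 is a morning sample and ZT14 was taken soon after lights-off. The tissue was laser-microdissected and pooled from 10 animals per time point. Whether that number holds for each surgical state, the animals' strain, sex and age, and whether the non-HPX mice had sham surgery are not stated in the labels. Each value is that of a pool, with no measure of how animals vary.

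In the E-box loop the activators CLOCK and BMAL1 bind E-box motifs and switch on the genes of their own repressors. PER and CRY proteins then gather in a complex that enters the nucleus and blocks CLOCK and BMAL1. CIART, also called CHRONO, represses the same pair. BHLHE40 and BHLHE41, also called DEC1 and DEC2, are basic helix-loop-helix proteins that occupy E-boxes themselves. Per1 in the SCN is also induced by light and by cyclic AMP through CREB, and in many tissues by glucocorticoids.

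Because the loop is defined by its DNA motif, the 250 bases upstream of the annotated starts were read from RefSeq sequence of mouse assembly GRCm38.p6. The table held 6 of the 7 genes in 7 windows. Bhlhe40 had no window, so its motifs were not examined. Per1 had a pair of windows, at chr11:69098699-69098948 and chr11:69099902-69100151 on the plus strand. Both lie within the annotated span of the gene, the second downstream of the first start. The other windows shown were on the minus strand, at chr3:95882229-95882478 for Ciart, chr6:145865421-145865670 for Bhlhe41, chr10:85185055-85185304 for Cry1 and chr4:151044666-151044915 for Per3. The 4 genes that differed between the times are printed first and Per3, which did not pass, last. All run 5′ to 3′ on the gene's own strand, and capitals mark motif matches on either strand.
Per1, upstream start: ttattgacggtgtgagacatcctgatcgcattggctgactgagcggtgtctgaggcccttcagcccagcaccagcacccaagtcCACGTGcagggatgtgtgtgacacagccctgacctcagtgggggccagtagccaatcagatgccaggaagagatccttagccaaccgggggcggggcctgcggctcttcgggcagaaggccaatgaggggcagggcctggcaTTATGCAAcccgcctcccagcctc
Per1, downstream start: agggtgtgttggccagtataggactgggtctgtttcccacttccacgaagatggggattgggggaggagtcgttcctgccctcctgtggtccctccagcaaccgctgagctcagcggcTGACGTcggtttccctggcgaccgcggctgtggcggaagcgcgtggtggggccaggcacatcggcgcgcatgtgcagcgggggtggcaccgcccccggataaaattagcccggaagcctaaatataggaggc
Ciart: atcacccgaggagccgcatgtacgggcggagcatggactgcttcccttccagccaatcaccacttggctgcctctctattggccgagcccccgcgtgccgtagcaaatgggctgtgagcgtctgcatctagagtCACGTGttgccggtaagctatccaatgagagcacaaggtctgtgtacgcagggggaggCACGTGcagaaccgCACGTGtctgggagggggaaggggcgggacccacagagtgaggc
Bhlhe41: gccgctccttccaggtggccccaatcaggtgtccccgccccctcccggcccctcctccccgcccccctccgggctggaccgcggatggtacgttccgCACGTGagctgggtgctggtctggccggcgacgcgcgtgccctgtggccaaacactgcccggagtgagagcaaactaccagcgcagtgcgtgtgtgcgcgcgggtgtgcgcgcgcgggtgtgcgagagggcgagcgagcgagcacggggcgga
Cry1: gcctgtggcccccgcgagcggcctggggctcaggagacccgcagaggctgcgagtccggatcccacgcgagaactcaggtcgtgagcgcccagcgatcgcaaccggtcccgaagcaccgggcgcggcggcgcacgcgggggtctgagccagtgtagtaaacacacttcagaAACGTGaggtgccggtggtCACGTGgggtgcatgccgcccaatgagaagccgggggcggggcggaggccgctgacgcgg
Per3: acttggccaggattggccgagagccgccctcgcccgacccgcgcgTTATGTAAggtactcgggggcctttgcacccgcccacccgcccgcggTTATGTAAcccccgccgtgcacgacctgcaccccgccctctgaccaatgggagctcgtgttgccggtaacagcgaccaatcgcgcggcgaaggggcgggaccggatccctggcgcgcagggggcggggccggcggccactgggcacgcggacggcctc

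The canonical E-box CACGTG, which reads the same on both strands, was present in windows of 4 genes: Per1, Ciart, Bhlhe41 and Cry1. Of all 32851 windows of this length in the table, 6.02% held it. Ciart held 3 copies, which began 116, 58 and 44 bases before its start, and 20 of all windows (0.0609%) held 3 or more. The copies of Per1, Bhlhe41 and Cry1 began 166, 153 and 60 bases before the start. The weaker E′-box CACGTT was matched on the minus strand (AACGTG) 79 bases before the Cry1 start and 166 bases before the Cry2 start, against 3.85% of all windows. The D-box TTATGNAA, bound by the PAR bZIP factors such as DBP, stood in the Per3 window in 2 copies, 205 and 158 bases before the start. It was also matched 24 bases before the upstream Per1 start. A D-box occurred in 3.07% of all windows and 2 or more in 0.128%. The core of the cyclic AMP response element, TGACGT, lay 132 bases before the downstream Per1 start (6.47% of all windows), and the ROR element TAGGTCA was matched in 0 of the 7 windows (2.23% of all). No matches overlapped each other. A match describes these letters in this window and was not tested for binding.

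**Figure D1:**
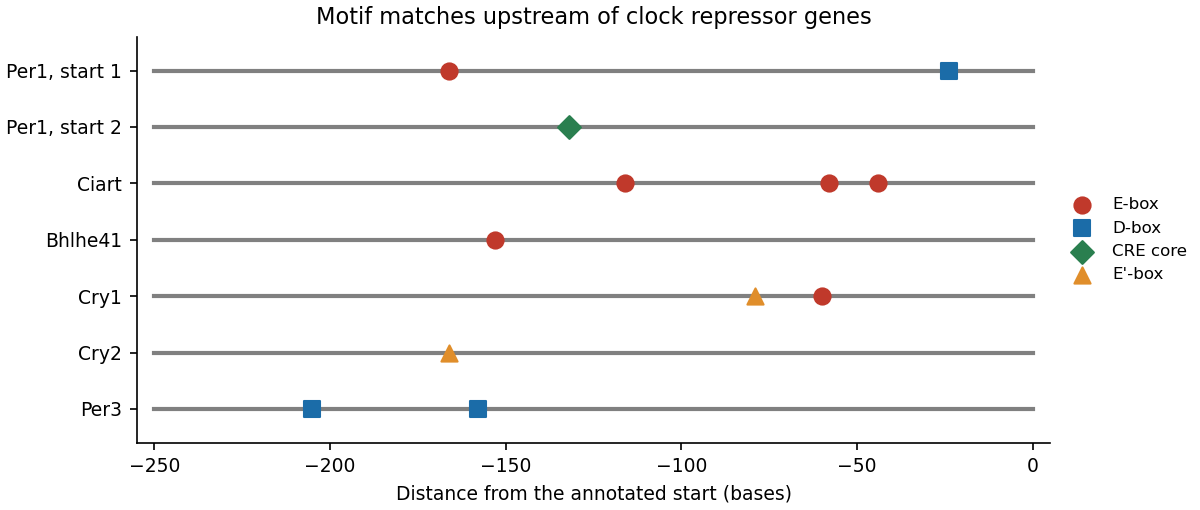
Positions of motif matches in the 250 bases before the annotated starts of 6 clock repressor genes (Per1 has 2 starts). The x axis is the distance from the start in bases and each symbol is the first base of a match; Ciart carries 3 E-boxes, and Per3 carries 2 D-boxes and no E-box match.

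All 7 transcripts were expressed. A gene counted as expressed when its highest value on the 4 arrays reached 6.02 on the log2 scale, the median of all genes' highest values; this kept 11090 genes. Even the lowest value of a clock repressor, Ciart at ZT14 in HPX, lay 0.55 above that floor. The dissected tissue carried SCN markers: all 11 of the list were expressed on the arrays, among them Vip between 11.62 and 11.88 and Avp between 10.82 and 11.50. Of 9 markers of neighbouring hypothalamic neurons 8 were measured (not Agrp) and 5 were expressed, with Crh, Pmch and Hcrt below the floor. The tissue thus may not have been SCN alone. Oxt read 10.805 at ZT2 and 10.750 at ZT14 in non-HPX, and 8.37 and 9.28 in HPX. By limma, described next, Oxt and Th were lower in HPX (adjusted p = 0.00554 and 0.0101). Hdc, the histamine-forming enzyme, was higher at night (0.71 ± 0.13 SE, adjusted p = 0.0444). Among the SCN markers Rasd1, a small G protein, rose at night (2.75 ± 0.22 SE; adjusted p = 0.000739) and Rgs16, a regulator of G-protein signalling, fell (-1.18 ± 0.14 SE; adjusted p = 0.00717). The part of such shifts in the night changes of the repressors was not tested. The mean log2 level of astrocyte markers (5 of 5 expressed) lay between 8.90 and 9.03, that of oligodendrocyte markers (4 of 5) between 7.65 and 7.90 and that of microglial markers (3 of 5; Aif1 and Tmem119 below the floor) between 7.31 and 7.43. Endothelial and mural markers (5 of 5) lay between 6.22 and 6.59, and ependymal markers (2 of 4; Ttr and Kl below the floor) between 7.82 and 7.94. In pooled tissue, fewer cells of a type and less RNA per cell cannot be told apart.

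Night was compared with day first. Per1, Bhlhe41 and Ciart fell from ZT2 to ZT14 and Cry1 rose, in both surgical states and by at least 1.5-fold in each (of all genes tested, 0.307% fell and 0.198% rose that far in both states). Bhlhe40, Cry2 and Per3 did not pass. The test was an additive limma model of time and surgery on all 4 arrays, with Benjamini-Hochberg adjustment over the 11090 expressed genes. Lower at night were 3 of the 7 repressors, where 0.343% of all genes tested were called lower, and higher at night was 1 of the 7, where 0.198% were called higher. The model has 1 residual degree of freedom, and its standard errors (SE) lean mainly on a variance pooled over the expressed genes. Without the expression filter none of the 4 calls passed (adjusted p from 0.496 to 0.513).

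Among the period genes, Per1 (probeset 17251527), which encodes a part of the PER and CRY complex, read 8.95 at ZT2 and 7.89 at ZT14 in non-HPX, and 8.79 at ZT2 and 7.92 at ZT14 in HPX (log2 values). The ZT2 arrays were high in both states, and the times were 0.87 apart at their closest, while the states differed by 0.16 at ZT2 and by 0.03 at ZT14. The night level was 2.09-fold lower than the day level in non-HPX and 1.83-fold lower in HPX, with a mean difference of -0.97 ± 0.12 (SE; adjusted p = 0.00739) and a 95% interval from -1.22 to -0.71. By p-value Per1 ranked 14 of 11090.

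Per3 (probeset 17433328), the period paralogue regarded as dispensable for the core rhythm, read 7.82 and 7.87 in non-HPX and 7.76 and 7.82 in HPX at ZT2 and ZT14. The 4 arrays lay within 0.11 of each other, a range smaller than that of most genes (percentile 11.9 of the expressed genes). The night difference was 0.06 ± 0.11 (SE; adjusted p = 0.977), with a 95% interval from -0.19 to 0.30. A fall of the size seen in Per1 lies outside that interval, which carries no measure of how animals vary. The night change of Per1 was lower than that of Per3 by 1.11 in non-HPX (log2 difference -1.11) and by 0.93 in HPX (-0.93).

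Cry1 (probeset 17243644), a strong repressor of CLOCK and BMAL1, ran the other way. It read 7.14 at ZT2 and 7.99 at ZT14 in non-HPX, and 7.35 and 8.14 in HPX. Both night arrays were above both day arrays, with a gap of 0.64 between the times. Night was 1.80-fold above day in non-HPX and 1.74-fold above day in HPX, with a mean of 0.82 ± 0.11 (SE; adjusted p = 0.00944) and a 95% interval from 0.57 to 1.07. The call ended with time alone in the model (adjusted p = 0.0533).

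Cry2 (probeset 17388389), its paralogue, read 7.52 at ZT2 and 7.35 at ZT14 in non-HPX, and 7.48 and 7.81 in HPX. The array that stood out was HPX at ZT14; the other 3 lay between 7.35 and 7.52, and the times overlapped. The night difference was -0.17 in non-HPX and 0.33 in HPX, with a mean of 0.08 ± 0.14 (SE; adjusted p = 0.962). Its 95% interval ran from -0.22 to 0.39, below that of Cry1. The mean level of endothelial and mural markers was also highest in HPX at ZT14 (6.59) and lowest in non-HPX at ZT14 (6.22). Of these markers Cldn5, Flt1 and Kdr were highest in HPX at ZT14, and Pecam1 and Pdgfrb in HPX at ZT2. The mean level of SCN markers was highest in HPX at ZT14 too (9.62). Of these markers Avp, Lhx1, Gpr176 and Rasd1 were highest there, with Rasd1 at 7.24 in HPX at ZT2 and 10.59 in HPX at ZT14. Vip and Vipr2 were highest in non-HPX at ZT14, Nms in HPX at ZT2 and the rest in non-HPX at ZT2. The part of either set of markers in the Cry2 values was not tested.

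Ciart (probeset 17407934) read 7.40 at ZT2 and 6.68 at ZT14 in non-HPX, and 7.26 and 6.57 in HPX. The fall was nearly the same size in the surgical states, 1.64-fold and 1.62-fold, and the times were 0.58 apart at their closest. The mean difference was -0.71 ± 0.11 (SE; adjusted p = 0.0229; 95% interval from -0.95 to -0.46). The call ended when each probeset was tested by itself (adjusted p = 0.0645) and with time alone in the model (adjusted p = 0.0625).

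The DEC genes differed from each other. Bhlhe41 (probeset 17472760) read 8.25 at ZT2 and 7.42 at ZT14 in non-HPX, and 8.12 and 7.25 in HPX. Day was above night on both pairs of arrays, by 1.77-fold and 1.82-fold, with a mean of -0.84 ± 0.11 (SE; adjusted p = 0.00915; 95% interval from -1.09 to -0.59). Bhlhe40 (probeset 17461414) read 7.99 and 7.67 in non-HPX, and 8.04 and 7.97 in HPX. Its night arrays were also below its day arrays, but the closest were 0.02 apart, and the times overlapped once each array was shifted to the same median. The mean difference of Bhlhe40 was -0.19 ± 0.12 (SE; adjusted p = 0.748; 95% interval from -0.46 to 0.07). In all, the times did not overlap in 5 of the 7 genes, as in 38.3% of all genes tested. Per3 joined these after cyclic loess (6 of 7, with a gap of 0.01 for Per3, against 39.4% of all genes). It replaced Bhlhe40 after the shift (5 of 7, against 39.2% of all genes).

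**Figure D2:**
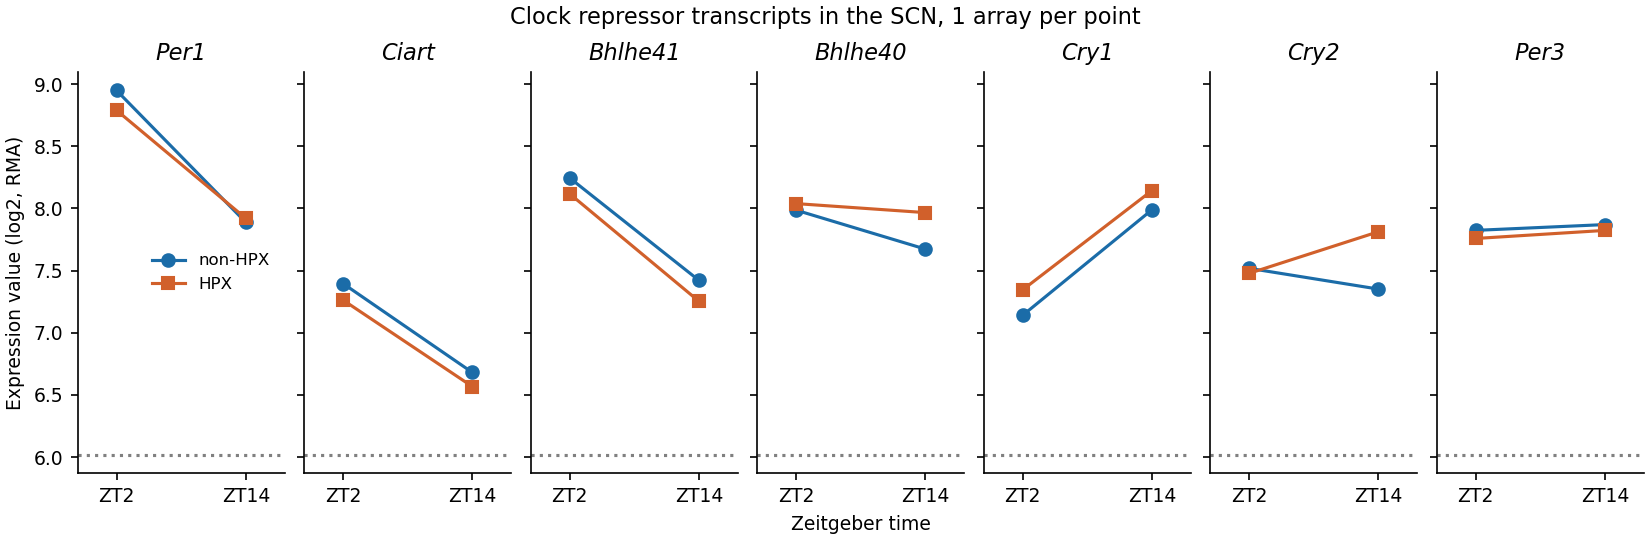
Log2 RMA expression value (y axis) of each clock repressor at ZT2 and ZT14 (x axis), 1 array per point, circles for non-HPX and squares for HPX, with the expression floor of 6.02 dotted. Lines of the 2 states run side by side for Per1, Ciart, Bhlhe41 and Cry1, while Cry2 falls by 0.17 in non-HPX and stands 0.33 higher at night in HPX.

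In each of the 3 paralogue pairs 1 gene passed and the other did not. The difference itself was taken within each array. Cry1 minus Cry2 changed by 1.02 from day to night in non-HPX and by 0.46 in HPX, and Bhlhe41 minus Bhlhe40 by -0.51 and -0.79. For Per1 minus Per3, Cry1 minus Cry2 and Bhlhe41 minus Bhlhe40 alike, the values at ZT2 and ZT14 did not overlap. With 2 arrays per time an exact two-sided permutation test cannot go below p = 0.333, which is the value each of the 3 pairs gave (0.333 after adjustment over the 3), so this test cannot separate the genes of a pair.

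**Figure D3:**
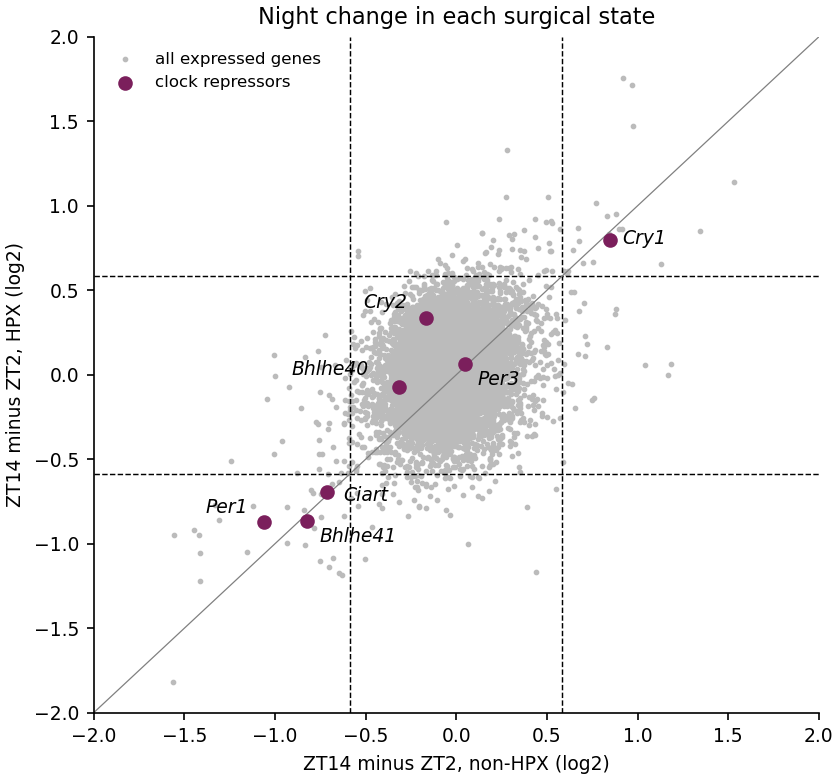
Night change (ZT14 minus ZT2, log2) in non-HPX on the x axis and in HPX on the y axis for 11090 expressed genes (grey) and the 7 clock repressors (purple); dashed lines mark 1.5-fold and 3 genes lie outside the plotted range. Per1, Ciart and Bhlhe41 lie past the lines at the lower left and Cry1 at the upper right.

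The difference between the night changes (HPX minus non-HPX) was 0.02 for Ciart and Per3, -0.04 for Bhlhe41 and -0.05 for Cry1. After shifting the arrays to the same median it was -0.084 for Ciart, -0.085 for Per3, -0.144 for Bhlhe41 and -0.153 for Cry1, so the sign for Ciart and Per3 turned. As deposited it was 0.19 for Per1 and 0.24 for Bhlhe40. The largest was that of Cry2, 0.50, and 6.01% of all expressed genes had a difference of that size or more. None of the 7 reached 1.5-fold, against 1.98% of all genes in the direction of a higher change in HPX and 0.956% in the other. The median size of the difference over the 7 repressors was 0.05 as deposited, 0.11 after cyclic loess and 0.14 after the shift, against 0.17, 0.16 and 0.16 over all expressed genes. With 1 array per group these differences have no test.

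HPX was then compared with non-HPX. By limma 0 of the 7 repressors passed, and 0 had an unadjusted p under 0.05; of all genes 0.135% passed and 4.68% had an unadjusted p under 0.05. At ZT2 the values in HPX differed from non-HPX by -0.16 for Per1, -0.07 for Per3, 0.20 for Cry1, -0.04 for Cry2, -0.13 for Ciart, 0.05 for Bhlhe40 and -0.13 for Bhlhe41. At ZT14 they differed by 0.03 for Per1, -0.05 for Per3, 0.15 for Cry1, 0.46 for Cry2, -0.11 for Ciart, 0.29 for Bhlhe40 and -0.17 for Bhlhe41. None reached 1.5-fold at either time, as against 0.848% of all genes at ZT2 and 0.622% at ZT14. Cry2 at ZT14 came closest, 1.38-fold higher in HPX.

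Averaged over the times, Cry2 stood at 0.21 ± 0.14 (SE), Cry1 at 0.18 ± 0.11, Bhlhe40 at 0.17 ± 0.12, Bhlhe41 at -0.15 ± 0.11, Ciart at -0.12 ± 0.11, Per1 at -0.06 ± 0.12 and Per3 at -0.06 ± 0.11. Each adjusted p was 1 after rounding. The 95% interval of Per1 ran from -0.32 to 0.19 and that of Cry2 from -0.10 to 0.52. Within this fit a mean change of 1.5-fold (0.58) in either direction lay outside both. The intervals cover only the mean over the times and carry no measure of how animals vary, so they cannot exclude such a change in the animals. At ZT14 alone Cry2 differed by 0.46. The 3 genes that fell at night had negative means, and Cry1 a positive one, but each of these was within 2 SE of 0.

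**Figure D4:**
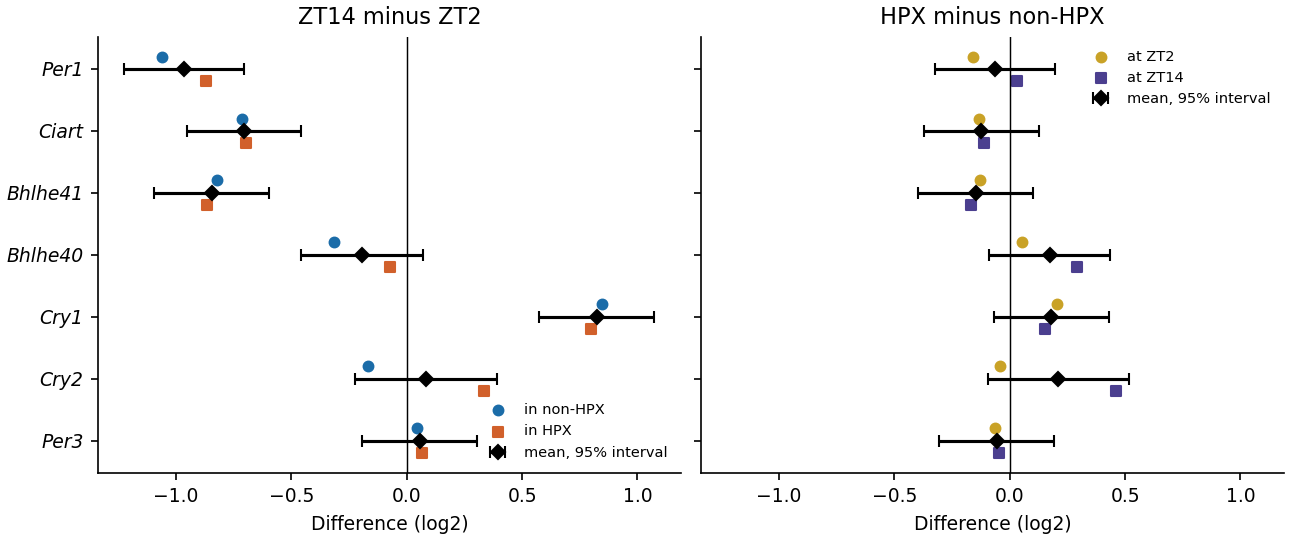
Differences on the log2 scale (x axis) for each clock repressor (y axis): ZT14 minus ZT2 on the left and HPX minus non-HPX on the right; diamonds with bars are limma means with 95% intervals, circles and squares the single differences named in each panel. The night intervals of Per1, Ciart, Bhlhe41 and Cry1 exclude 0, and every surgery interval includes it.

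Per1 was set beside other genes known to respond to the inputs it shares. Of 8 glucocorticoid targets 7 were expressed. For surgery 1 of them fell by limma, the transcription factor Klf9 (-0.78 ± 0.11 SE, adjusted p = 0.0363). An unadjusted limma p under 0.05 was seen in 6 of the 7, against 4.68% of all genes. The exception was Dusp1, at -0.0005. Sgk1 and Sult1a1 reached the expression floor only in non-HPX at ZT14 (6.37 and 6.27), and Tsc22d3 only in non-HPX (6.13 and 7.17). The count of 6 and the list's median thus lean in part on the filter, which keeps a gene on its highest value. The median difference was -0.55, against -0.02 over all expressed genes and -0.06 ± 0.12 for Per1. By time, the list's median was -0.20 at ZT2 and -0.85 at ZT14. Per1 stood at -0.16 and 0.03, and the median over all expressed genes at -0.06 and 0.01. Of 11 CREB-responsive genes, all expressed, 5 fell at night and 1 rose. The kinase Sik1 differed by -1.32 (adjusted p = 0.00129), the phosphatase Dusp1, which is on both lists, by -1.23 (adjusted p = 0.00321), and Fosl2 by -1.18 (adjusted p = 0.00649). Gem, a small GTPase, differed by -0.88 (adjusted p = 0.0158) and the nuclear receptor Nr4a2 by -0.73 (adjusted p = 0.03). Npas4 rose by 1.34 (adjusted p = 0.00915). It reached the expression floor only in HPX at ZT14 (6.64), its highest array, so its call leans on the filter. The list's median night difference was -0.41, against 0.01 over all expressed genes, and Per1 stood at -0.97. The part of either input in the Per1 values was not tested.

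The rest of the loop was read from lists of its other parts. Of the 4 activators Arntl, which encodes BMAL1, rose at night (0.72 ± 0.13 SE; adjusted p = 0.0444), while Npas2 stood at 0.36, Clock at 0.19 and Arntl2 at -0.13 without passing. Cry1 and Arntl thus both had higher night values, opposite to Per1, Ciart and Bhlhe41. Of 4 expressed genes of the REV-ERB and ROR loop, which drives Arntl and Cry1, the repressor Nr1d1 fell (-1.25 ± 0.15 SE; adjusted p = 0.00717). Nr1d2 stood at -0.63 (adjusted p = 0.0509), Rorb at -0.40 and Rora at -0.06. Of the PAR bZIP factors and their counterpart Nfil3, the E-box target Dbp fell (-0.73 ± 0.11 SE; adjusted p = 0.0195), with Hlf at -0.26, Tef at -0.22 and Nfil3 at 0.27. Of 15 expressed kinases, phosphatases and ubiquitin ligase parts that set PER and CRY stability, such as Csnk1e, Btrc and Fbxl21, 0 passed for time and 0 for surgery by limma, and 0 had an unadjusted p under 0.05 for either; over all genes 8.21% had one for time and 4.68% for surgery, so lists of this size would hold few. Of 11 expressed proteins found in PER complexes, such as Nono, Sfpq and Wdr5, likewise 0 passed, with 0 at an unadjusted p under 0.05. The median night difference was 0.08 for the stability list and 0.05 for the complex list.

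**Figure D5:**
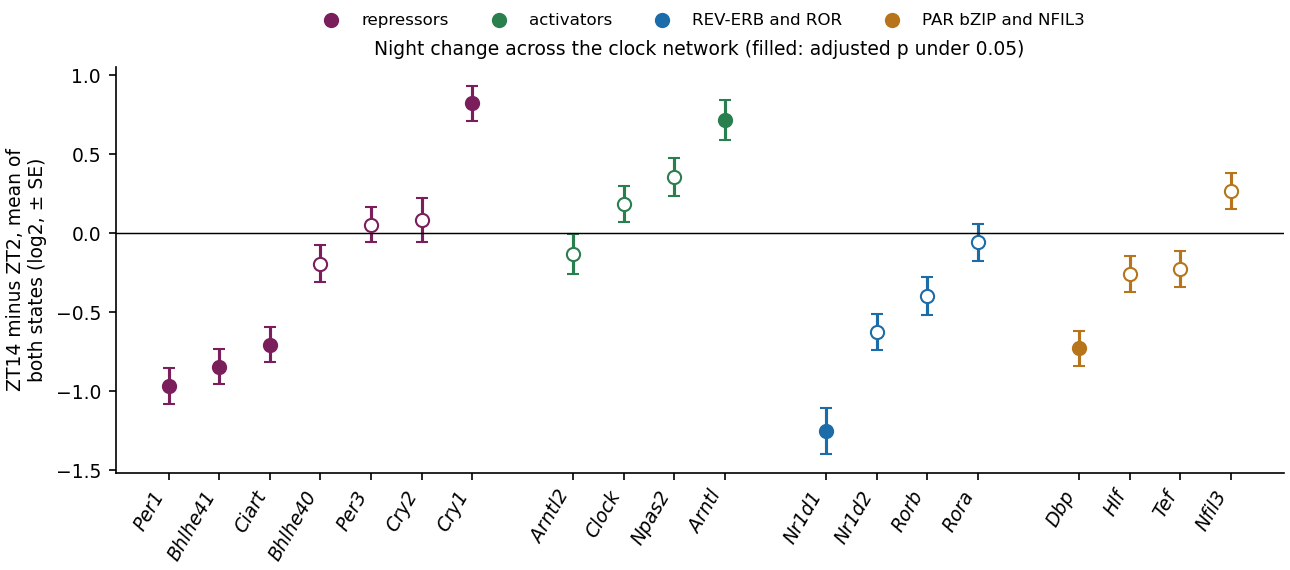
Night difference averaged over both states (y axis, log2, with SE from limma) for expressed genes of 4 groups of the clock network, ordered within each group; filled points passed an adjusted p of 0.05. Cry1 and Arntl stand above 0 and Per1, Bhlhe41, Ciart, Nr1d1 and Dbp below it.

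For the 4 repressors that spanned at least 1.5-fold over the arrays, the expressed genes with the most similar profile were found. Likeness was the Euclidean distance between log2 values centred on each gene's mean over the 4 arrays, among 10297 genes. Dbp lay closest to Ciart, at a distance of 0.04, followed by Zfp964 (0.08) and St3gal1, a sialyltransferase (0.10). Tmem51 (0.10) and Dbp (0.12) were closest to Bhlhe41, and Ciart came next (0.14). For Per1 the closest were Tmem51 (0.14), Fabp7, a fatty acid carrier of glia (0.15) and Rps12-ps24 (0.19). For Cry1 they were Ccn3, a secreted matrix protein (0.07), Grb14, a receptor adaptor (0.13), and Hs3st1, a heparan sulfate sulfotransferase (0.16). Zfp964 belongs to a family of close copies and Rps12-ps24 is named as a pseudogene, so which copy those probesets read is uncertain. Hs3st1 reached the expression floor only at ZT14 (6.31 and 6.40) and Zfp964 only in non-HPX at ZT2 (6.08), so their profiles lie near or under it. A profile of 4 values is short, and likeness over 4 arrays is a description only. Among the repressors themselves Per1 and Bhlhe41 were 0.19 apart, Per1 and Ciart 0.28, and Per1 and Cry1 1.81.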

How the data were processed

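The authors deposited log2 expression values for 41345 probesets on 4 arrays, made with RMA (Affymetrix Expression Console, as the submitters' processing notes name it, with no version). RMA equalises probe intensity distributions between arrays, so shifts common to most genes are largely removed; medians of expressed genes still lay between 7.28 and 7.37. Probesets naming exactly 1 gene were averaged per gene. Of 23521 such probesets, 23328 had their Entrez identifier in the RefSeq table of GRCm38.p6. Time and surgery were fitted additively with limma 3.58.1 (R 4.3.3), with 8.77 prior and 1 residual degrees of freedom, the latter being their interaction. The fit was also run on simulated data whose noise was drawn from its own fitted prior, so that run could not check the prior. A fold of 1.5 was used for single differences. Upstream windows and figures were made with Python 3.11.15. The members and lists were chosen with earlier results of these data known. Named were every repressor, every listed gene passing over all genes, every expressed activator, REV-ERB, ROR or PAR bZIP gene, and the 3 genes most like each repressor. Alternatives were cyclic loess, a shift to equal medians, other expression filters, single probesets, an intensity trend and 1 factor left out. No group has replicates, and p-values measure only the spread between these arrays, whose number limits the precision.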

Additional observations from a re-analysis of the deposited data

Results flagged for a closer look

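The night change of Cry2 had opposite signs in the surgical states, -0.17 in non-HPX and 0.33 in HPX, a difference of 0.50. Both signs held after cyclic loess (-0.15 and 0.30) and after shifting the arrays to the same median (-0.12 and 0.27). HPX minus non-HPX for Cry2 also had opposite signs, -0.04 at ZT2 and 0.46 at ZT14, which is the same difference of 0.50 seen the other way; the sign at ZT2 turned to 0.01 after cyclic loess and 0.05 after the shift. HPX minus non-HPX for Per1 was -0.16 at ZT2 and 0.03 at ZT14, a difference of 0.19; it was -0.10 and 0.02 (0.13 apart) after cyclic loess, and -0.065 and 0.02 (0.09 apart) after the shift. With 1 array per group none of these differences was tested.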

How the results depend on the processing

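The 4 time-of-day calls kept their direction after cyclic loess. The other alternatives of the limma fit leave each repressor's mean difference unchanged, so they bear only on the p-values and could not turn a direction. As in the main fit, 1 repressor rose and 3 fell after cyclic loess, under the stricter filter and with an intensity trend. Without the expression filter 0 repressors rose and 0 fell; of all genes 0 rose and 1 fell at night (1615 at an unadjusted p under 0.05), and 0 fell in HPX (1169 at an unadjusted p under 0.05). With single probesets 13 genes rose and 21 fell at night and 9 fell in HPX. With 1 factor left out 12 rose and 19 fell at night, 2 fell in HPX, and 0 repressors rose. As reported, 22 rose and 38 fell at night and 15 fell in HPX; the cause of these differences was not tested. Cyclic loess moved no repressor's difference by more than 0.065 and the shift to equal medians by no more than 0.104. The separation of the HPX from the non-HPX arrays in Per3, 0.0003 as deposited, ended under both scalings. No paired analysis was possible because the labels number no replicates; the additive fit already compares the times within each surgical state. Leaving out an array leaves the additive model no residual degree of freedom.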
